A study of Mus musculus with 4 samples.

Results

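The genes described here are those of sterol metabolism. They encode the enzymes that build cholesterol, the proteins that move, store or export sterols, and the regulators of both. They were chosen by name from a list of 32 genes, and 31 of the 32 had a row among the 14193 named genes of the deposited tables. Of these, 30 were found by the gene name in the tables and Msmo1 by its older symbol Sc4mol. Hmgcs1 was not analysed here. The 31 genes comprise 17 synthesis enzymes, the branch enzyme Ggps1 and 13 genes of uptake, transport, storage, efflux and regulation. Those grouped as uptake and transport were the carriers Stard4, Npc1 and Npc2. No lipoprotein receptor was on the list.

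The study profiled transcripts of regulatory T (Treg) cells, the Foxp3-expressing T cells that hold immune responses in check. Treg cells came from spleens of C57BL/6 mice that were wild type (WT) or carried an Nsd2 Treg conditional knock out (cKO). Nsd2 writes methyl groups on lysine 36 of histone H3. Each genotype had 2 libraries, and each library, called a pool below, mixed RNA from at least 3 mice; the labels give no age or sex of the mice and do not say which Cre driver made the deletion.

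Cells obtain cholesterol by making it from acetyl-CoA through mevalonate, farnesyl diphosphate, squalene and lanosterol, or by taking up lipoproteins. When sterols in the endoplasmic reticulum run low, the escort protein Scap carries the SREBP transcription factors to the Golgi, where they are cut and released to switch on the synthesis genes; Insig proteins hold Scap back when sterols are plentiful. Oxysterols made under surplus activate the liver X receptors (LXR), which switch on the exporters Abca1 and Abcg1. T cells raise sterol synthesis when they grow and divide, and mevalonate products are needed for the function of Treg cells.

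Promoter motifs are shown here because SREBPs are known to switch on the synthesis genes. The list itself was chosen by name, not by SREBP control, and also holds genes of the LXR side. SREBPs are weak activators alone and are known to act beside NF-Y and Sp1. A window of 300 bases (250 before to 50 after the start site, RefSeq GRCm38.p6) was given for 25 of the 31 genes (not for Fdps, Fdft1, Sqle, Stard4, Npc1 and Abcg1) and searched on both strands for the NF-Y motif CCAAT, the Sp1 motif GGGCGG and a sterol response element core, TCACNCNAC. CCAAT was present for 13 of 14 synthesis enzymes (92.9%) and for 8 of 11 other sterol genes (72.7%). It was present for 41.1% of the 27025 genes with such a window and for 43.1% of the 8235 among them that were tested in these libraries. GGGCGG was present for 13 of 14 synthesis enzymes (92.9%) and 9 of 11 others (81.8%), against 70.2% of tested genes and 38.2% of all genes with a window. The sterol core occurred for 1 synthesis enzyme, Nsdhl, and for 3.25% of tested genes and 3.15% of all genes with a window. Only this pattern was searched, so a sterol response element with other letters would be missed. Genes with several start sites were counted once, if any window held the motif. The 210 bases before the start site are given below for 5 synthesis enzymes and for Nr1h2, which had none of the motifs in its window; capitals mark motif matches on either strand, so CCAAT on the minus strand reads ATTGG and GGGCGG reads CCGCCC.
Idi1 (chr13:8885396-8885605, plus strand): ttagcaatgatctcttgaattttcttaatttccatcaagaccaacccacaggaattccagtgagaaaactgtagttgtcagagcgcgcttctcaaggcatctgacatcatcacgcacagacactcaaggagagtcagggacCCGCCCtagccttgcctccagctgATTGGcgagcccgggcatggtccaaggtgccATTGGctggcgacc
Mvd (chr8:122443423-122443632, minus strand): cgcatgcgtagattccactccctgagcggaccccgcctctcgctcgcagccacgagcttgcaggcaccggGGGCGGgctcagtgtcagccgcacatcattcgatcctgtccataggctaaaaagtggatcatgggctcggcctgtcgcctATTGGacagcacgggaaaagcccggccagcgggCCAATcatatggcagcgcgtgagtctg
Cyp51 (chr5:4104698-4104907, minus strand): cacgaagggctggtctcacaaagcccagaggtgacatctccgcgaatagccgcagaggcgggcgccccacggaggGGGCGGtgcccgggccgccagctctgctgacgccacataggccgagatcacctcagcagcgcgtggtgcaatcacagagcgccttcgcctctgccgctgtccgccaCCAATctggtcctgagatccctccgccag
Msmo1 (chr8:64733579-64733788, minus strand): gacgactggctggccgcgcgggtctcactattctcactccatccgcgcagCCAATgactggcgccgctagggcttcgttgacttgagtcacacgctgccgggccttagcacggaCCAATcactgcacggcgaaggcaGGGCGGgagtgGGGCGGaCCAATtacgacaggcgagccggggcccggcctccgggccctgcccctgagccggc
Nsdhl (chrX:72918311-72918520, plus strand): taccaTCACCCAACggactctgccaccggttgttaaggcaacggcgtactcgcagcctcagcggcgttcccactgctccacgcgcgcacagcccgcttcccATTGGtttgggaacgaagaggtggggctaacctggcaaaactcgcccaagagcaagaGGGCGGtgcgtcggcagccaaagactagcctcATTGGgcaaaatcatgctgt
Nr1h2 (chr7:44553966-44554175, minus strand): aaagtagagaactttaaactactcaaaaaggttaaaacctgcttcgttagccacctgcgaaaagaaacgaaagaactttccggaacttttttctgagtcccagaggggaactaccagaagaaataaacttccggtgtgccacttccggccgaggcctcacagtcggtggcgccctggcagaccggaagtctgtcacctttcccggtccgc

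In these stretches Idi1, Mvd and Nsdhl each held a pair of CCAAT matches, Msmo1 held 3 and Cyp51 held 1. The sterol core of Nsdhl began 205 bases before the start site. No match overlapped a match of another motif in these stretches. A match describes the letters only and shows no binding.

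The deposited values were read as RPKM, reads scaled to transcript length and to the reads of the library. That unit was inferred from their range, and on that reading levels can be compared between genes. Library depth, read from the steps between low values, was about 19172000 to 21276000 reads. Nsd2 itself was at 6.82 and 7.44 RPKM in the WT pools against 3.46 and 4.27 RPKM in the cKO pools, so both libraries labelled cKO lay below both labelled WT. The Treg markers Foxp3 (113 to 145 RPKM), Il2ra (104 to 146), Ctla4 (91.9 to 125), Ikzf2 (60.9 to 77.7), Cd3e (249 to 266) and Cd4 (178 to 203) were high in all 4 libraries. Genotypes were compared with limma on log2(RPKM + 1) over 10688 genes whose mean reached 1 RPKM, a filter that all 31 sterol genes passed. No gene passed a Benjamini-Hochberg adjusted p of 0.05: limma called 0% of genes tested and 0 of the 31, whose adjusted p was 0.9998 throughout. At an unadjusted p under 0.05 there were 332 genes (3.11%), and 3 of the 31 sterol genes. The differences below are therefore given as values, with the share of all genes that did the same.

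Sterol genes differed widely in level, from 1.67 RPKM for Hsd17b7 to 63.1 RPKM for Srebf2 (means of 4 libraries). The synthesis enzymes were the lower part of the range, with a median WT level of 5.74 RPKM against 17.4 RPKM for the 13 genes of uptake, storage, efflux and regulation and 10.8 RPKM for all genes tested. Srebf2, which encodes the SREBP that mainly drives cholesterol synthesis, and Npc2, a lysosomal cholesterol carrier, stood highest, at the 92.7th and 92.0th percentile of genes tested. Among the enzymes Ebp, Sc5d and Fdps led, at 17.4, 15.3 and 15.3 RPKM.

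**Figure D1:**
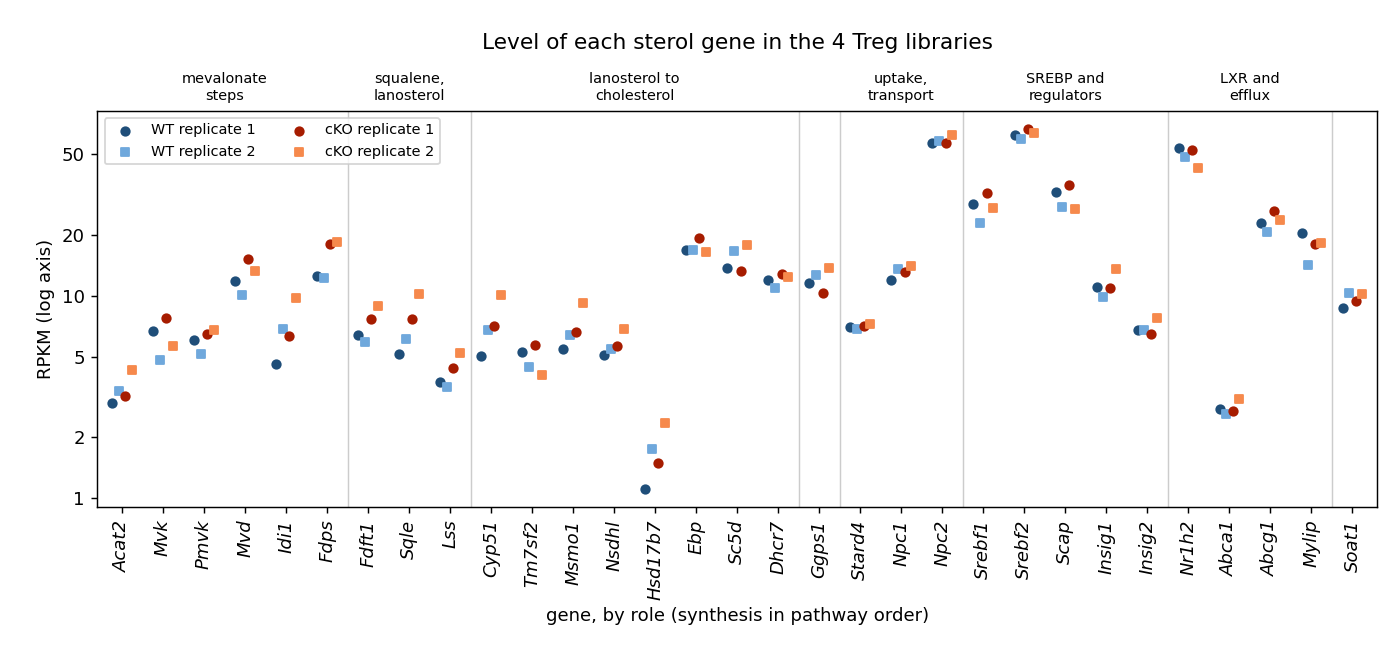
RPKM of 31 sterol genes (log axis) in 2 WT libraries (blue) and 2 cKO libraries (red and orange), grouped by role; each point is a library. Srebf2 and Npc2 lie above 50 RPKM and Nr1h2 around it, most synthesis enzymes between 3 and 20 RPKM, and Hsd17b7 lowest.

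Synthesis enzymes stood higher in cKO more often than genes at large. The cKO pools exceeded both WT pools for 10 of 17 enzymes, where 17.4% of all genes tested did so, and lay under both for 0 of 17, where 9.06% of all genes did so. The median of their log2 fold changes, on log2(RPKM + 1), was 0.269, against 0.029 for all genes, and 7 of the 17 lay above the 95th percentile of all genes (0.314). Of the 17, 16 had a log2 fold change above 0, as did 6323 of the 10688 genes tested. With median-of-ratios scaling Sc5d turned to -0.027. Summed over the 17 enzymes, RPKM was 125 and 127 in the WT libraries and 149 and 162 in the cKO libraries, 1.23-fold higher on average (126 ± 1.94 against 155 ± 9.29, SD, n = 2). The highest value was in cKO replicate 2 for 12 enzymes and in cKO replicate 1 for the other 5. In both genotypes replicate 2 lay above replicate 1 for 8 of the 17 enzymes, among them Idi1, Sqle, Cyp51 and Msmo1. Replicate 2 lay below replicate 1 in both genotypes for 4 (Mvk, Mvd, Tm7sf2 and Dhcr7). These counts describe a list chosen with earlier results of these libraries in view and carry no test. The sign held in every fit that left out a library for 13 of the 17; it turned for Mvk (-0.0073 without WT replicate 2, -0.0085 without cKO replicate 1), Ebp (-0.029 without cKO replicate 1), Sc5d (-0.18 without cKO replicate 2, -0.12 without WT replicate 1) and Tm7sf2 (0.20 without cKO replicate 2, 0.096 without WT replicate 1).

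**Figure D2:**
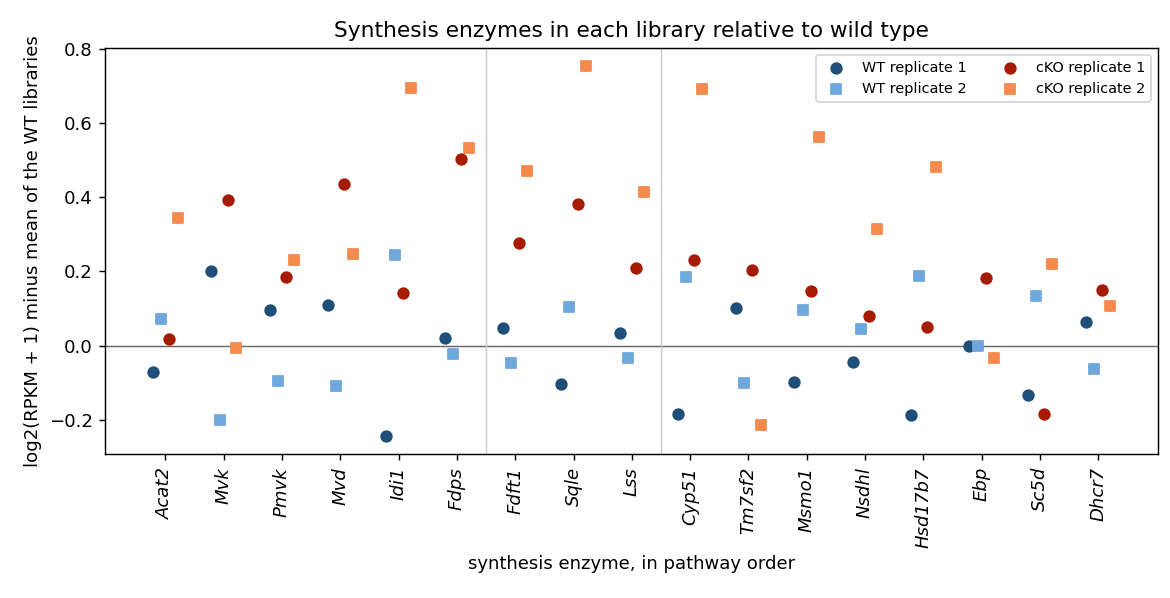
Each synthesis enzyme in pathway order, as log2(RPKM + 1) minus the mean of the WT libraries; points are single libraries and grey lines part the mevalonate steps, squalene to lanosterol, and lanosterol to cholesterol. Fdps, Fdft1, Sqle and Lss show higher points for both cKO libraries than for either WT library, while Tm7sf2, Ebp and Sc5d overlap.

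In the mevalonate steps the difference was widest at Mvd, Idi1 and Fdps. Acat2, which joins acetyl-CoA units, was at 2.96 and 3.37 RPKM in the WT pools against 3.21 and 4.28 RPKM in the cKO pools. Mvk, the mevalonate kinase, was at 6.67 and 4.81 RPKM in the WT pools against 7.77 and 5.64 RPKM in the cKO pools. For both genes the genotypes overlapped. Pmvk, the next kinase, was at 6.07 and 5.18 RPKM in the WT pools against 6.51 and 6.76 RPKM in the cKO pools, which did not overlap. Mvd, which removes a carboxyl group to give isopentenyl diphosphate, was at 11.9 and 10.1 RPKM in the WT pools against 15.2 and 13.2 RPKM in the cKO pools, again apart. Its log2 fold change was 0.34 ± 0.14 (SE, limma unadjusted p = 0.0572, adjusted p = 0.9998).

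Idi1, the isomerase of the isoprene building blocks (chromosome 13, 8885606 to 8892396), was at 4.61 and 6.87 RPKM in the WT pools against 6.33 and 9.76 RPKM in the cKO pools. The means were 1.40-fold apart, but cKO replicate 1 lay below WT replicate 2, so the genotypes overlapped.

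Fdps, the farnesyl diphosphate synthase, had the lowest p of the sterol genes. It was at 12.6 and 12.2 RPKM in the WT pools against 18 and 18.4 RPKM in the cKO pools. Both pairs of replicates were tight and far apart, with means of 12.4 ± 0.313 and 18.2 ± 0.272 RPKM (SD, n = 2), a ratio of 1.47. The log2 fold change was 0.52 ± 0.12 (SE, limma unadjusted p = 0.00458, adjusted p = 0.9998), rank 36 of the 10688 genes by p. Fdps lies on GRCm38 chromosome 3, 89093588 to 89101967.

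Farnesyl diphosphate leaves the sterol route where Ggps1 extends it to geranylgeranyl diphosphate, the lipid attached to Rab proteins. Ggps1 was at 11.6 and 12.7 RPKM in the WT pools against 10.3 and 13.8 RPKM in the cKO pools, with the lowest and the highest value both in cKO libraries. The ratio of Fdps to Ggps1 RPKM was 1.08 and 0.956 in the WT libraries and 1.76 and 1.34 in the cKO libraries. The Ggps1 log2 fold change of -0.029 turned to 0.17 without cKO replicate 1 and to 0.031 without WT replicate 2.

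The 3 enzymes from farnesyl diphosphate to lanosterol all stood apart between genotypes. Their summed RPKM was 1.42-fold higher in cKO, the widest mean ratio of the synthesis stages. That order was not seen in cKO replicate 1. Their median difference from the WT mean, on log2(RPKM + 1), was 0.278 in cKO replicate 1 and 0.472 in cKO replicate 2. For the 6 mevalonate enzymes it was 0.289 and 0.297. Fdft1, the squalene synthase (chromosome 14, 63145150 to 63181687), was at 6.41 and 5.93 RPKM in the WT pools against 7.68 and 8.93 RPKM in the cKO pools. The log2 fold change was 0.37 ± 0.14 (SE, limma unadjusted p = 0.0388, adjusted p = 0.9998). Sqle, the squalene epoxidase and a rate-limiting step (chromosome 15, 59315092 to 59331193), was at 5.18 and 6.14 RPKM in the WT pools against 7.65 and 10.2 RPKM in the cKO pools. Its ratio of means, 1.58, was the highest of the 31 genes. Its log2 fold change was 0.57 ± 0.18 (SE, limma unadjusted p = 0.0202, adjusted p = 0.9998), with a 95% interval of 0.13 to 1.01, and was 0.38 without cKO replicate 2. In reads these Sqle values correspond to about 279 and 325 in WT and 405 and 600.4 in cKO. Lss, which closes the ring to give lanosterol, was at 3.77 and 3.55 RPKM in the WT pools against 4.39 and 5.21 RPKM in the cKO pools, a ratio of 1.31.

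Past lanosterol the enzymes divided. Cyp51, the demethylase that acts first on lanosterol (chromosome 5, 4080674 to 4104697), was at 5.04 and 6.81 RPKM in the WT pools against 7.06 and 10.1 RPKM in the cKO pools. The lower cKO library was close to the higher WT library, and the log2 fold change was 0.46 ± 0.22 (SE, limma unadjusted p = 0.078, adjusted p = 0.9998). It was 0.23 without cKO replicate 2, 0.28 without WT replicate 1 and 0.69 without cKO replicate 1. Msmo1, which oxidises the methyl groups at carbon 4, was at 5.45 and 6.38 RPKM in the WT pools against 6.64 and 9.20 RPKM in the cKO pools. Nsdhl, which acts with Msmo1 in that step, was at 5.11 and 5.49 RPKM in the WT pools against 5.65 and 6.83 RPKM in the cKO pools. Both genes were apart between genotypes by a narrow margin, set by cKO replicate 1. Hsd17b7, the ketoreductase of the same complex, was the lowest of the 31 genes at 1.11 and 1.74 RPKM in the WT pools against 1.49 and 2.36 RPKM in the cKO pools, about 99.9 to 232 reads.

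Tm7sf2, Ebp, Sc5d and Dhcr7 had the smallest differences of the synthesis enzymes. Tm7sf2, the sterol reductase that acts on carbon 14 after Cyp51, was at 5.27 and 4.45 RPKM in the WT pools against 5.73 and 4.04 RPKM in the cKO pools, with the extremes both in cKO. Its 95% interval for the log2 fold change was -0.48 to 0.47, which does not show that the levels were equal. Ebp, the sterol isomerase, stood at 16.9 RPKM in each WT library and at 19.3 and 16.5 RPKM in cKO. Sc5d, the desaturase of carbon 5, was at 13.7 and 16.7 RPKM in the WT pools against 13.2 and 17.8 RPKM in the cKO pools. Within each genotype the Sc5d libraries lay further apart than the genotype means of 15.2 and 15.5 RPKM. Dhcr7, which makes cholesterol from 7-dehydrocholesterol, was at 12.0 and 10.9 RPKM in the WT pools against 12.8 and 12.4 RPKM in the cKO pools, a ratio of 1.10. Over the 8 enzymes after lanosterol the median log2 fold change was 0.162 and the summed RPKM ratio 1.13. These were 0.275 and 1.32 over the 6 mevalonate enzymes with values, and 0.375 and 1.42 over the 3 steps between. The 6 leave out Hmgcs1 and do not cover the whole mevalonate route.

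The 13 genes of uptake, transport, storage, efflux and regulation, which include no lipoprotein receptor, stood closer to genes at large. The cKO pools exceeded both WT pools for 3 of the 13 (Stard4, Srebf2 and Abcg1), beside 17.4% of all genes tested, and lay under both for 0, beside 9.06%. With median-of-ratios scaling the genotypes overlapped for Stard4 (log2 fold change 0.0053) and Srebf2 (0.057), while Abcg1 (0.15) stayed narrowly apart. The median log2 fold change of the 13 genes was 0.078 without that scaling, against 0.029 for all genes. It was 0.037 with median-of-ratios scaling and 0.042 without cKO replicate 2. Summed RPKM was 325 and 302 in WT and 338 and 321 in cKO, which overlapped. Of the 13, 12 had a log2 fold change above 0, as did 6323 of the 10688 genes tested. With median-of-ratios scaling Scap turned to -0.00014 and Soat1 to -0.00046. Of the 13, 6 kept their sign whichever library was left out. The other 7 turned: without WT replicate 1, Npc1 to -0.0061 and Soat1 to -0.064; without cKO replicate 2, Npc2 to -0.016, Insig2 to -0.054, Nr1h2 to 0.042 and Soat1 to -0.012; without WT replicate 2, Mylip to -0.17 and Scap to -0.072; and without cKO replicate 1, Scap to -0.14. The difference between these genes and the synthesis enzymes was not tested.

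**Figure D3:**
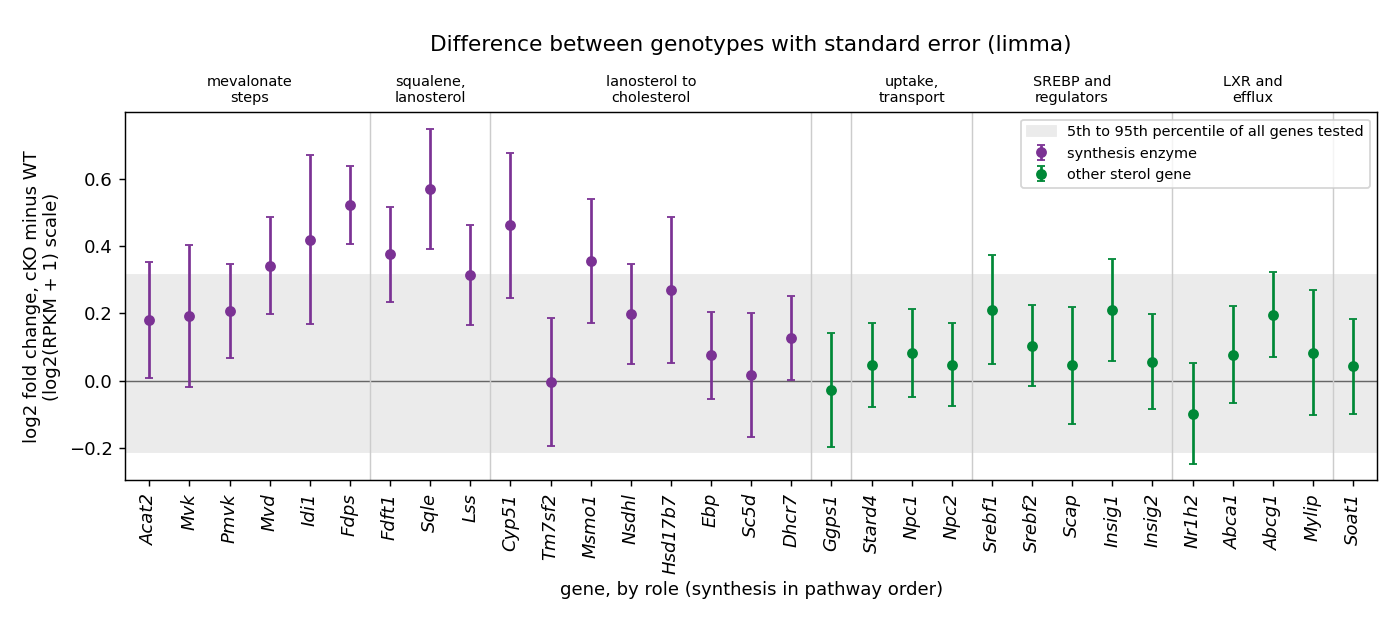
Log2 fold change (cKO minus WT) of each sterol gene with its standard error from limma; purple marks synthesis enzymes, green the others, and the grey band spans the 5th to 95th percentile of all genes tested (-0.212 to 0.314). 7 synthesis enzymes and 0 of the other genes lie above the band.

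Among the regulators, the SREBP genes were among the most abundant. Srebf2 was at 62.1 and 59.5 RPKM in the WT pools against 67.2 and 63.6 RPKM in the cKO pools, apart by a small margin (ratio 1.08). Srebf1, whose products favour fatty acid synthesis genes, was at 28.4 and 22.8 RPKM in the WT pools against 32.2 and 27.2 RPKM in the cKO pools. Its genotypes overlapped, and the log2 fold change was 0.21 ± 0.16 (SE, limma unadjusted p = 0.243, adjusted p = 0.9998). Dropping WT replicate 2 gave 0.058, cKO replicate 1 0.092, cKO replicate 2 0.33 and WT replicate 1 0.36. Scap, the escort of the SREBPs, was at 32.5 and 27.5 RPKM in the WT pools against 35.3 and 27.0 RPKM in the cKO pools.

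The Insig genes encode the anchors that retain Scap, and Insig1 is itself an SREBP target. Insig1 was at 11.1 and 9.88 RPKM in the WT pools against 11.0 and 13.6 RPKM in the cKO pools, where cKO replicate 1 lay inside the WT range and cKO replicate 2 above it. Insig2 was at 6.75 and 6.80 RPKM in the WT pools against 6.49 and 7.73 RPKM in the cKO pools, with both extremes in cKO. The ratio of Insig1 to Insig2 RPKM was 1.64 and 1.45 in WT and 1.70 and 1.76 in cKO.

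Genes that move incoming cholesterol differed by 1.06-fold at most. Npc1, the lysosomal membrane protein that works with Npc2, was at 12.0 and 13.6 RPKM in the WT pools against 13.1 and 14.1 RPKM in the cKO pools. Npc2 was at 56.8 and 58.4 RPKM in the WT pools against 57.0 and 62.2 RPKM in the cKO pools. Both overlapped between genotypes. Stard4, a cytosolic sterol carrier and a known SREBP target, was at 7.02 and 6.86 RPKM in the WT pools against 7.11 and 7.29 RPKM in the cKO pools, a ratio of 1.04. Soat1, which esterifies cholesterol for storage, was at 8.73 and 10.3 RPKM in the WT pools against 9.39 and 10.2 RPKM in the cKO pools, inside the WT range.

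On the LXR side, Nr1h2, which encodes LXR beta, was at 53.7 and 48.4 RPKM in the WT pools against 52.5 and 43.1 RPKM in the cKO pools. Abcg1, an exporter to high-density lipoprotein, was at 22.8 and 20.8 RPKM in the WT pools against 26.4 and 23.8 RPKM in the cKO pools, and was the only LXR or efflux gene of the list whose genotypes did not overlap. Its log2 fold change was 0.20 ± 0.13 (SE, limma unadjusted p = 0.175, adjusted p = 0.9998), and 0.13 without either WT replicate 2 or cKO replicate 1. Abca1, the exporter to lipid-poor apolipoprotein, was low at 2.77 and 2.62 RPKM in the WT pools against 2.70 and 3.10 RPKM in the cKO pools. Mylip, an LXR-induced ubiquitin ligase that lowers lipoprotein uptake, was at 20.5 and 14.2 RPKM in the WT pools against 18 and 18.3 RPKM in the cKO pools, where the WT libraries enclosed both cKO values.

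Related genes outside the list were read from a further set of 39, of which 36 were tested; Ch25h, Cyp27a1 and Cyp7b1 were not analysed here. Their log2 fold changes were above 0 for 19 and below for 17, with a median of 0.012. Over all 10688 genes tested, 6323 were above 0 and 4365 below. The cKO pools exceeded both WT pools for 6 of the 36 (17.4% of all genes did) and lay under both for 3 (9.06% of all genes did), and 0 had an unadjusted p under 0.05, where 3.11% of all genes did. The 8 genes of SREBP cleavage and of sterol-regulated degradation (such as Mbtps1, which makes the first cut, at 37.8 and 33.4 RPKM in the WT pools against 37.0 and 35.3 RPKM in the cKO pools) had a median of 0.017. The 12 genes of prenylation and other isoprenoid use had a median of 0.028, and the 14 of intracellular sterol transport a median of -0.040. Mbtps1, Tmem97, a sterol-binding protein and SREBP target, and Arl4c, an LXR target, were singled out after their values were seen. Tmem97 was at 2.96 and 3.13 RPKM in the WT pools against 3.51 and 5.08 RPKM in the cKO pools. Arl4c was at 60.1 and 60.4 RPKM in the WT pools against 74.8 and 71.4 RPKM in the cKO pools, a ratio of 1.21 (limma unadjusted p = 0.0624, adjusted p = 0.9998).

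Proliferation genes and markers of other cells also differed between the libraries. Among the proliferation genes, 11 of 11 tested had a log2 fold change above 0 (6323 of all 10688 genes did). For 8 of these proliferation genes the cKO pools exceeded both WT pools (17.4% of all genes did). Their summed RPKM over 12 genes was 63.8 and 58.2 in WT and 72.0 and 84.4 in cKO, so cKO replicate 2 was highest, as it was for the synthesis enzymes. Of 6 B cell markers, Cd79a, Cd79b and Cd22 had values, summing to 8.46 and 6.78 RPKM in WT and to 11.7 and 10.8 RPKM in cKO; the others were not analysed here. The 7 macrophage and monocyte markers summed to 7.06 and 10.5 RPKM in WT and to 21.9 and 6.50 RPKM in cKO, and the 5 erythroid genes with values to 24.4 and 11.5 RPKM in WT and to 43.0 and 7.37 RPKM in cKO. Both were highest in cKO replicate 1, in which the summed synthesis enzymes were lower than in cKO replicate 2. Of 5 CD8 T and NK cell markers, 4 had values, summing to 15.3 to 20.1 RPKM in WT and 17.6 to 19.6 RPKM in cKO. Of 6 stress genes, 6 had a log2 fold change below 0 (4365 of all 10688 genes did). Both cKO values lay under both WT values for 5 of them (9.06% of all genes did). The heat shock gene Hsph1 was at 40.1 and 104 RPKM in the WT pools against 32.9 and 23.3 RPKM in the cKO pools. Between WT replicates 1 and 2 single synthesis enzymes moved both ways, such as Idi1 (4.61 and 6.87 RPKM) and Mvk (6.67 and 4.81 RPKM). None of the markers with values was at 0 in any library. The part of proliferating cells, other cell types or handling in the sterol values was not tested, and in bulk RNA fewer cells of a type cannot be told from less RNA per cell.

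**Figure D4:**
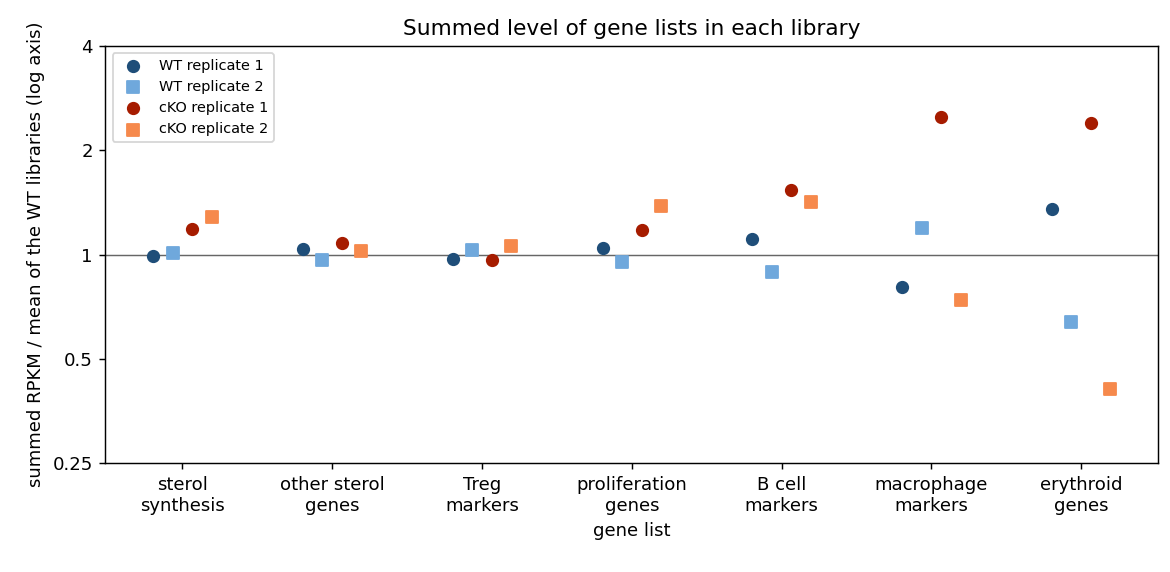
Summed RPKM of gene lists in each library divided by the mean of the WT libraries (log axis); points are single libraries. The synthesis enzymes, proliferation genes and B cell markers show higher points for both cKO libraries than for either WT library, while the other sterol genes and Treg markers overlap.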

How the data were processed

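RNA-seq (single-end reads of 50 nt) was deposited as 4 tables, 2 WT and 2 cKO, grouped by the labels. The authors deposited RPKM values for 19291 RefSeq transcripts; no header names the unit, which was inferred from their range. The tools HISAT2 and DESeq2 and the build mm10 are named, with no role, per the submitters' processing notes; counting, strand use and the handling of near-identical copies were not stated in any source used here. Rows were matched to RefSeq (GRCm38.p6) by accession (16720 rows) or name (1402); 1169 rows without a gene name, 10.9% of the RPKM sum, were left out. Per gene the row of highest mean was used.

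limma 3.58.1 (R 4.3.3) was run on log2(RPKM + 1) over 10688 genes whose mean reached 1 RPKM. It used trend and robust moderation, genotype only, two-sided, with Benjamini-Hochberg at 0.05. Folds of low genes come out too small on log2(RPKM + 1). SE and 95% intervals come from this fit. The method was first tested on simulated data with independent noise and changes larger than any sterol ratio here. That test does not show how often smaller changes would be found. The labels do not say that replicates came from separate sorts, so p-values measure the spread between pools. Depth was set so that low values gave whole reads; 64.2 to 66.3% lay within 0.1 of one, where chance gives 20%, which partly restates that choice. Read numbers use GENCODE M21 lengths (21 of 31 genes), cover counting error only and are approximate.

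The genes and lists were chosen with earlier results of these data known. The naming rule took all listed sterol genes and the related genes with an unadjusted p under 0.05, of which there were 0; Mbtps1, Tmem97 and Arl4c fall outside it and were named after their values were seen. Alternatives were other pseudocount, filters, scaling, moderation, transcript rows, replicate block and leaving out each library. Figures used matplotlib 3.10.9.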

Additional observations from a re-analysis of the deposited data

How the results depend on the processing

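Among up to 11 alternatives for each sterol gene (a filter at 5 RPKM leaves some untested), 0 brought a gene past limma's adjusted p of 0.05, and 19 of 31 genes kept their sign in all. With median-of-ratios scaling, which moved the median of all genes from 0.029 to -0.014, the sign turned for Sc5d (-0.027), Scap (-0.00014) and Soat1 (-0.00046), and the median of the 13 genes of uptake, storage, efflux and regulation was 0.037. The synthesis median was 0.366 with a pseudocount of 0.1 and 0.239 with median-of-ratios scaling. With that scaling 9 of the 17 synthesis enzymes had both cKO values above both WT values. The share of all genes, 17.4%, was counted on unscaled values of all 4 libraries and not again for the alternatives. Leaving out a library gave 66 or 38 genes past the threshold over all genes when WT replicate 1 or 2 was dropped, and 21 or 60 when cKO replicate 1 or 2 was, 0 of them sterol genes, in fits that take the lone library's spread from the other genotype. The synthesis median then ran from 0.185 to 0.344, the other median from 0.042 to 0.107, and 11 to 14 synthesis enzymes had all cKO values above all WT values, a condition that fewer libraries meet more easily. The ranges of the signs that turned were -0.0085 to 0.39 for Mvk, -0.21 to 0.20 for Tm7sf2, -0.029 to 0.18 for Ebp, -0.18 to 0.22 for Sc5d, -0.22 to 0.17 for Ggps1, -0.0061 to 0.17 for Npc1, -0.016 to 0.11 for Npc2, -0.14 to 0.23 for Scap, -0.054 to 0.17 for Insig2, -0.24 to 0.042 for Nr1h2, -0.17 to 0.33 for Mylip and -0.064 to 0.15 for Soat1. The labels do not say that a replicate number marks a shared batch; the difference between replicates 1 and 2 correlated between genotypes (r = 0.51 across 10688 genes, which are not independent). With the replicate number as a block, 1 gene passed over all genes and 0 sterol genes, with a lowest adjusted p of 0.0957 for Fdps, and 10 sterol genes had an unadjusted p under 0.05 where 15.3% of all genes did. The cause of these shifts was not tested.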

Other observations

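For 5 of the sterol genes the tables hold a second transcript row. The other Pmvk transcript was at 4.77 and 4.19 RPKM in the WT pools against 5.74 and 5.72 RPKM in the cKO pools, apart like the row used. The other Mylip transcript was at 16 and 12.4 RPKM in the WT pools against 14.2 and 15.7 RPKM in the cKO pools, and overlapped like the row used. The second rows of Insig2 (6.61 and 6.48 RPKM in the WT pools, 5.98 and 6.80 in the cKO pools) and Scap (31.8 and 26.8 RPKM in the WT pools, 34.7 and 26.3 in the cKO pools) were lower than the rows used in every library. A non-coding transcript of Mvd was at 11.5 and 9.97 RPKM in the WT pools against 14.6 and 12.8 RPKM in the cKO pools. How reads were divided between rows of 1 gene is not stated, so these are not separate measurements.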
